A study of Mus musculus with 2 samples.

Results

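The genes described here are 10 genes of the germline: Dazl, Mael, Sycp1, Sycp3, Tex19.1, Rhox5, Rhox6, Rhox9, Rpl10l and Rpl39l. They were chosen by symbol from the 32285 genes of the deposited count tables, as genes often kept silent by DNA methylation outside germ cells, and all 10 were found. Earlier results of these data were known when these genes and the lists below were chosen, so counts over them are descriptions. The 10 genes were followed in 2 single-cell libraries from R1, a mouse embryonic stem cell line, 1 per culture condition, taken after 72 hours in N2B27 medium, a serum-free base. The LB library came from cells on gelatin with BMP4 and LIF, the cytokine used to keep such cells self-renewing. The LBPXRS library came from cells on fibronectin with LIF and BMP4 plus 4 compounds: PD0325901 (a MEK inhibitor), Xav939 (a tankyrase inhibitor that lowers WNT signalling), SB431542 (an inhibitor of activin and NODAL receptors) and a compound labelled only as a resorcylic lactone. Medium and substrate changed together, so their effects cannot be told apart, and with no second library of either condition no difference between them has a replicate check.

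Many germline genes have promoters rich in CpG that carry DNA methylation in somatic cells and carry less of it in the germline and in naive embryonic stem cells. A second layer of silencing comes from the PRC1.6 complex, which reaches such promoters through E2F6 with its DP partner and through MGA with MAX, the latter pair binding the E-box CACGTG. The Rhox genes form a cluster of homeobox genes on the X chromosome that are active in reproductive tissues and placenta and whose silencing in embryonic cells depends on DNA methylation. Cultures of mouse embryonic stem cells with a MEK inhibitor are known for low DNA methylation, but methylation was not measured in these libraries.

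The 250 bases before the start of a gene, taken from RefSeq for GRCm38.p6, were read for 8 of the 10 genes. Rhox6 and Rhox9 had no entry. CACGTG (the same on both strands) was found in 3 of the 8, against 6.02% of all 32817 windows of that length. The E2F letters GCGGGA, or TCCCGC on the other strand, were found in 4 of the 8, against 16.9% of all windows. Mael and Sycp3 held both, against 1.44% of all windows. The 4 windows below are shown because Dazl had the largest difference between the libraries and holds neither motif, while Mael, Sycp1 and Sycp3 are the 3 with an E-box. Capitals mark the matches. A match is a run of letters, not a shown binding site.
Dazl (chr17:50293621-50293870, minus strand): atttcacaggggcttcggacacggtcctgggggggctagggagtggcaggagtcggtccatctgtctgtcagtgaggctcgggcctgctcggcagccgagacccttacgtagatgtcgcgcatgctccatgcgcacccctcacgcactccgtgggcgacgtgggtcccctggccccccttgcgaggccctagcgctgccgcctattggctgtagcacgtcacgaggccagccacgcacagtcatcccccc
Mael (chr1:166238745-166238994, minus strand): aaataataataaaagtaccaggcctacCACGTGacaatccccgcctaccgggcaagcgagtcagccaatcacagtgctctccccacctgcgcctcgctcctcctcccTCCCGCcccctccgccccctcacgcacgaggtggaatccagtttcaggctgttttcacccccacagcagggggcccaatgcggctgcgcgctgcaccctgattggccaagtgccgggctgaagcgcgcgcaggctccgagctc
Sycp1 (chr3:102936101-102936350, minus strand): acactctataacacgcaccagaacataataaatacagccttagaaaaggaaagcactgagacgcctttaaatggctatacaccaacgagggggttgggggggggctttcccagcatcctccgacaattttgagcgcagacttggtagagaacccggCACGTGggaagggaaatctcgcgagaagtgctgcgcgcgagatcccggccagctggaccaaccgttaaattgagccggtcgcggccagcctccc
Sycp3 (chr10:88459337-88459586, plus strand): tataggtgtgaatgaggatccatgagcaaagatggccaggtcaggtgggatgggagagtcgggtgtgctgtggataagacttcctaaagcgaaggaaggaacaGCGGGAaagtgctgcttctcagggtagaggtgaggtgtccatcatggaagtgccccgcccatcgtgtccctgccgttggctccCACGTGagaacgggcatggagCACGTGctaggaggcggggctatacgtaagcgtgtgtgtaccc
The Dazl window held 20 CpG dinucleotides, Mael 18, Sycp1 17 and Sycp3 12, where the median of all windows was 6. Tex19.1 had 15 CpGs and 1 E2F match, Rpl39l 12 CpGs and neither motif, and Rpl10l 8 CpGs and 1 E2F match. The Rhox5 window, at a RefSeq start far from the start in the GENCODE annotation, held 4. Among the windows of 64 other germline genes from the lists described below, 27.5% held the E-box and 28.8% the E2F letters, with a median of 13 CpGs. With 8 windows and 1 gene at least 2-fold lower in LBPXRS, no relation of motif to direction was tested.

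Counts are of unique molecular identifiers (UMIs), 1 per captured RNA molecule. LB gave 1783 kept cells with a median of 25418 UMIs and LBPXRS 2705 cells with a median of 19058, for totals of 45490517 and 51832444 UMIs. The libraries shared 10 barcodes, 8 of them among kept cells. They also differed in ways the media do not name. Kdm5d, Uty, Ddx3y and Eif2s3y, 4 genes of the Y chromosome, summed to 2872 UMIs in LB and 1 in LBPXRS. Genes of chromosome 11 had a median log2 ratio of -0.65 and those of chromosome 8 of -0.60, while other chromosomes lay between -0.17 and 0.01. The labels do not say whether both cultures came from 1 stock of R1 cells, so a difference of stock and the difference of medium cannot be told apart. Tex19.1 is the only one of the 10 genes on either of these chromosomes, and the X chromosome, with the Rhox cluster, had a median of -0.10.

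Levels are each gene's UMIs over all kept cells, per 1000000 UMIs of the library (CPM), and the log2 ratio is taken after adding 1 CPM to each side, which understates the difference of low genes. Folds are ratios of CPM without that addition. Intervals in parentheses are exact 95% intervals and cover counting error only. Of the 10 genes, 5 reached a 2-fold higher level in LBPXRS on the log2 scale, beside 8.53% of the 12618 genes whose mean CPM reached 1, and 1 was at least 2-fold lower, beside 11.6% of those genes. All 10 passed that filter. At 4-fold, 2 were higher (Dazl and Rpl39l), beside 1.69%, and 0 lower, beside 2.83%. The median log2 ratio of all these genes was -0.14.

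**Figure D1:**
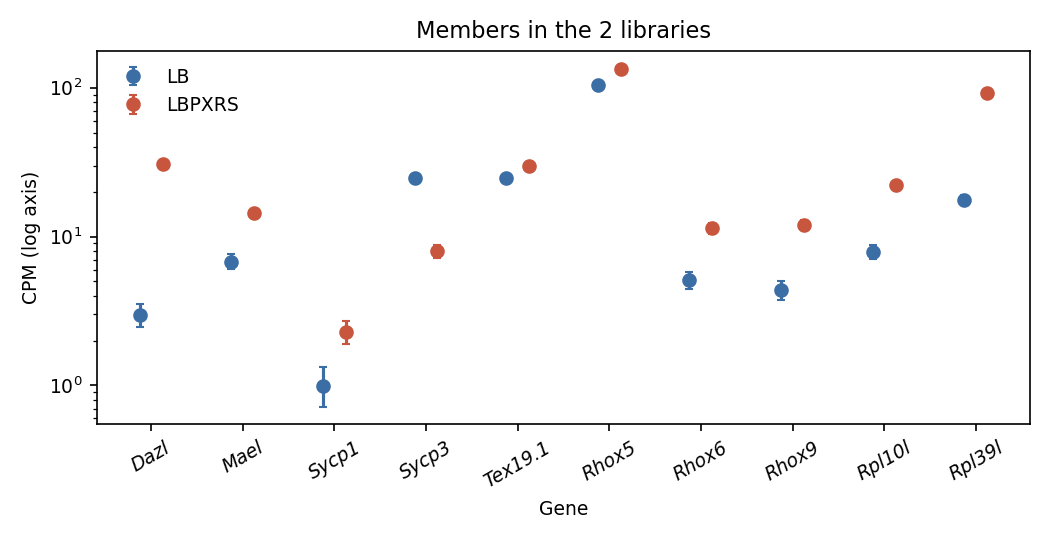
Level of each of the 10 genes in LB (blue) and LBPXRS (red), in CPM on a log axis, with exact 95% Poisson intervals that are often smaller than the point. Dazl and Rpl39l show the widest gaps, and Sycp3 is the gene whose LB point lies above its LBPXRS point.

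Dazl, an RNA-binding protein that controls translation in germ cells, had the largest difference. It had 135 UMIs in LB, or 2.97 CPM (2.49 to 3.51), and 1589 in LBPXRS, or 30.7 CPM (29.2 to 32.2), a 10.3-fold higher level (8.66 to 12.4). The LBPXRS level was above every LB cluster described below. Dazl lies on chromosome 17 (mm10, 50279395 to 50293636, minus strand), whose genes had a median log2 ratio of 0.00081.

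Mael, a factor of the piRNA pathway that silences transposons in the male germline (chromosome 1, 166201201 to 166238747, minus strand), had 6.79 CPM in LB (6.06 to 7.59) and 14.3 in LBPXRS (13.3 to 15.4). Its log2 ratio of 0.97 lay just outside the 2-fold line, as that of Rhox6 lay just inside it. In CPM alone the LBPXRS level was 2.10-fold higher (1.84 to 2.41). Tex19.1, which limits retrotransposons in germ cells and placenta (chromosome 11, 121146143 to 121148319, plus strand), had 24.6 CPM in LB (23.2 to 26.1) and 29.9 in LBPXRS (28.5 to 31.5). That is a 1.22-fold higher level and a log2 ratio of 0.27, on a chromosome whose median was -0.65.

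Sycp1 and Sycp3 encode parts of the synaptonemal complex, which joins homologous chromosomes in meiosis: Sycp1 forms the transverse filaments and Sycp3 the lateral elements. The 2 genes went opposite ways. Sycp1 (chromosome 3, 102818499 to 102936100, minus strand) was low, with 45 UMIs in LB, or 0.989 CPM (0.722 to 1.32), and 118 in LBPXRS, or 2.28 CPM (1.88 to 2.73). Its log2 ratio was 0.72, and in CPM alone the LBPXRS level was 2.30-fold higher (1.62 to 3.32). Sycp3 (chromosome 10, 88459569 to 88473236, plus strand) had 1128 UMIs in LB, or 24.8 CPM (23.4 to 26.3), and 413 in LBPXRS, or 7.97 CPM (7.22 to 8.77). It was 3.11-fold lower in LBPXRS (2.78 to 3.49), with a log2 ratio of -1.52.

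The 3 Rhox genes encode homeobox transcription factors, Rhox5 also being known as Pem. Rhox5 (X chromosome, 37804842 to 37808876, plus strand) had 104 CPM in LB (101 to 107) and 133 in LBPXRS (130 to 136), 1.28-fold higher (1.23 to 1.33). Rhox6 (37826910 to 37829857, plus strand) had 5.08 CPM in LB (4.44 to 5.78) and 11.4 in LBPXRS (10.5 to 12.3), a log2 ratio of 1.03. Rhox9 (37899097 to 37901770, minus strand) had 4.35 CPM in LB (3.77 to 5.00) and 12.0 in LBPXRS (11.1 to 13.0), a log2 ratio of 1.28. So Rhox6 and Rhox9 had larger ratios between the libraries than Rhox5. Of the 31 other Rhox genes in the tables, 16 had no UMI in either library and 2 passed the filter: Rhox1, with a log2 ratio of 0.89, and Rhox13, with 0.75. Rhox2a and Rhox2d, copies of 1 gene, had 17 and 0 UMIs in LB and 23 and 13 in LBPXRS, and reads of such copies cannot be told apart with certainty. Rhox7a had 7 and 11 UMIs, Rhox7b 19 and 39, and Rhox10 14 and 6.

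Rpl10l and Rpl39l are autosomal copies of the X-linked ribosomal protein genes Rpl10 and Rpl39 and are known for expression in male germ cells. Rpl39l (chromosome 16, 10170226 to 10174911, plus strand) had 804 UMIs in LB, or 17.7 CPM (16.5 to 18.9), and 4781 in LBPXRS, or 92.2 CPM (89.6 to 94.9). It was 5.22-fold higher (4.84 to 5.63). Rpl10l (chromosome 12, 66283379 to 66284401, minus strand) had 7.89 CPM in LB (7.10 to 8.75) and 22.3 in LBPXRS (21.1 to 23.7), 2.83-fold higher (2.51 to 3.20). Their X-linked counterparts did not differ on that scale. Rpl10 had 3354 CPM in LB and 2970 in LBPXRS, and Rpl39 had 2593 and 2614. The paralogs Rpl22l1 (-0.30), Rpl36al (-0.29), Rps27l (0.09) and Rpl7l1 (0.04) also had log2 ratios within 2-fold. Of the 7 ribosomal paralogs on that list 1 reached 2-fold higher, beside 8.53% of all genes: Rpl3l, with 36 and 134 UMIs and a log2 ratio of 1.00 (named after its value was seen). No stretch of 91 bases in the last 500 bases of any of the 10 genes' transcripts was shared with another gene, whereas 87.6% of such stretches of Rpl10 were shared, so its level is uncertain.

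To compare shares of cells with a UMI, 5000 UMIs were drawn at random from every cell, which left 1733 LB and 2621 LBPXRS cells and left out 50 and 84. Dazl had a UMI in 1.33% of cells in LB (0.843 to 1.98) and in 10.5% in LBPXRS (9.38 to 11.8). Rpl39l was found in 5.89% (4.82 to 7.10) and 29.0% (27.2 to 30.7), and Rpl10l in 2.89% (2.15 to 3.79) and 10.3% (9.16 to 11.5). For these 3 genes the larger level went with more positive cells. At means between 0.0144 and 0.485 UMIs per thinned cell, more expressing cells cannot be told apart from more RNA per cell. Without thinning the shares were 5.95% and 23.2% for Dazl, 19.07% and 55.8% for Rpl39l, and 13.8% and 30.6% for Rpl10l.

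Mael had a UMI in 3.69% of thinned cells in LB (2.86 to 4.69) and in 5.95% in LBPXRS (5.08 to 6.93). For Sycp1 the shares of 0.635% (0.317 to 1.13) and 1.07% (0.711 to 1.54) overlapped in their intervals, so a difference in share was not detectable at this depth. For Sycp3 the shares were 11.8% (10.3 to 13.4) and 3.93% (3.22 to 4.75), in the order of its CPM. Tex19.1 was found in 9.41% (8.07 to 10.9) and 12.8% (11.6 to 14.2), and Rhox5 in 17.5% (15.8 to 19.4) and 25.2% (23.6 to 26.9). Rhox6 was found in 1.27% (0.797 to 1.92) and 3.89% (3.18 to 4.70), and Rhox9 in 2.14% (1.51 to 2.93) and 3.93% (3.22 to 4.75). The shares also move with the random draw, which the intervals do not cover. With another seed Mael in LB had 2.37%, and Sycp1 0.346% in LB and 0.649% in LBPXRS, over 1.5 times below the values above. No UMI of any of the 10 genes was found in 59.4% of thinned LB cells and in 33.8% of thinned LBPXRS cells.

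The LB library held several cell classes. Cells were clustered in each library without the 10 genes, the other germline genes and the Rhox family. LB cluster 1 (761 cells) was naive pluripotent-like by its markers, cluster 2 (387 cells) primitive streak or mesoderm-like, and 3 clusters stayed unnamed: cluster 3 (333 cells, led by Fgf5, Pou3f1 and Dnmt3b among others), cluster 4 (241 cells, with T and Dnd1 among its leading genes) and cluster 5 (61 cells, led by Slc7a3, Spp1 and Pmel, at a median of 10646 UMIs). No LBPXRS cluster took a name. The 12 primitive streak and mesoderm markers were all at least 4-fold lower in LBPXRS and summed to 533 CPM in LB and 6.02 in LBPXRS, with Hand1 and Evx1 at 0 UMIs in LBPXRS, where 2.83% of all genes were 4-fold lower. Of the 10 naive markers 7 were at least 2-fold higher and 1 lower, beside 8.53% and 11.6% of all genes, and they summed to 1010 and 1579 CPM. Fewer cells of a class and less RNA per cell cannot be told apart in sums over a library, so the genes were next read by cluster.

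Within LB, 8 of the 10 genes had a 2-fold or larger excess in the naive pluripotent-like cells than in the other LB cells on the log2 scale, beside 6.80% of 12440 genes. The naive pluripotent-like cells held 45.9% of all LB UMIs, but 95.1% of those of Rpl39l, 94.1% of Dazl, 91.1% of Rpl10l and 83.8% of Rhox9. Tex19.1, Sycp1, Mael and Rhox5 had between 77.8% and 79.1% of theirs in these cells. Rhox6 had 67.1%, and Sycp3 had 45.1%, the same as its share of all RNA to within 1 percentage point.

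Rpl39l had 36.6 CPM in naive pluripotent-like cells (34.1 to 39.3) and 1.59 in the other LB cells (1.13 to 2.17), 23.1-fold apart. Dazl had 6.08 CPM (5.07 to 7.23) and 0.325 (0.140 to 0.641), and Rpl10l 15.7 CPM (14.0 to 17.4) and 1.30 (0.890 to 1.84). Over the other LB cells together these 3 genes were at under 2 CPM, but not in each cluster: the 61 cells of cluster 5 had 16.9 CPM of Rpl10l (8.73 to 29.5), 12.7 of Rpl39l (5.80 to 24.1) and 4.23 of Dazl (0.872 to 12.4), and cluster 3 had 2.46 of Rpl39l. In thinned cells of the mesoderm-like cluster, 0 of 365 had a UMI of Dazl, Mael, Sycp1 or Rpl10l, so a share up to 0.822% (3 cells), or 1.01% by the exact interval, remains possible for cells with a UMI at this depth (not for cells that express the gene), and 1 cell had a UMI of Rpl39l (0.274%). Before thinning the whole cluster held 1 Dazl, 2 Mael, 0 Sycp1 and 2 Rpl10l UMIs. That cluster had a median depth of 23399 UMIs and the naive pluripotent-like cells 27221. Among naive pluripotent-like cells the shares were 2.92% for Dazl (1.84 to 4.39), 6.91% for Mael (5.20 to 8.96), 6.37% for Rpl10l (4.74 to 8.36) and 12.4% for Rpl39l (10.1 to 14.9).

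**Figure D2:**
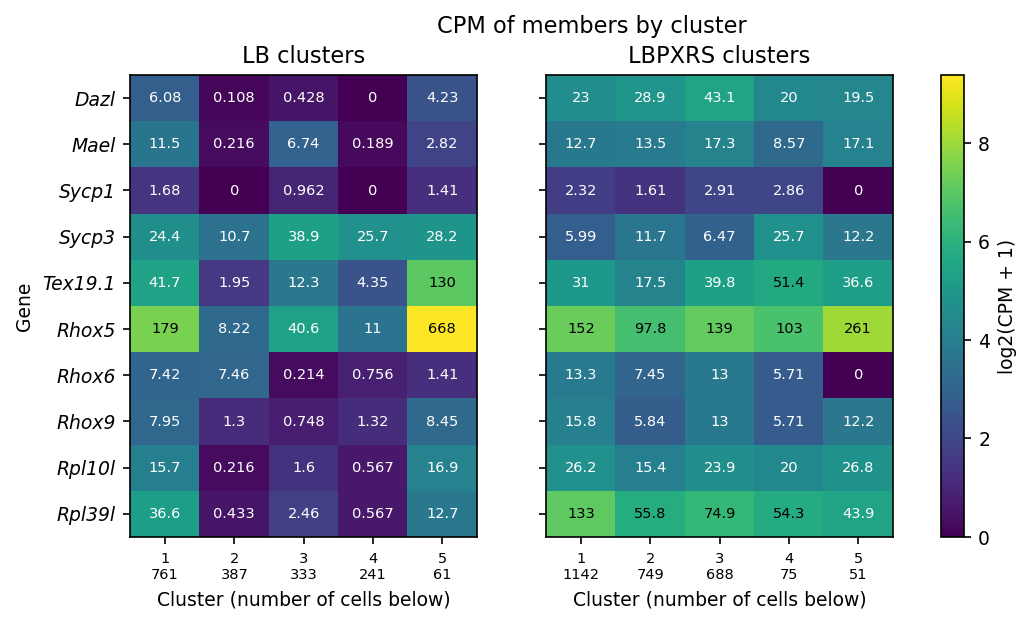
CPM of each of the 10 genes (rows) in each cluster (columns, numbered by size, with the number of cells) of LB on the left and LBPXRS on the right; colour is log2(CPM + 1) and the printed value is CPM. LB clusters 2 and 4 are dark for most genes, while Dazl lies between 19.5 and 43.1 CPM in all 5 LBPXRS clusters.

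The LB clusters differed by gene in what lay outside the naive pluripotent-like class. Mael kept 6.74 CPM (5.18 to 8.62) in cluster 3, against 0.216 in cluster 2 and 0.189 in cluster 4. By CPM, Tex19.1 and Rhox5 were highest in the 61 cells of cluster 5, at 130 CPM (104 to 159) and 668 CPM (609 to 731). In the naive pluripotent-like cells they had 41.7 and 179 CPM. These intervals leave out unevenness between cells: 16 of the 61 cells had at least 10 Rhox5 UMIs and 35 had none. Shares of thinned cells did not separate the 2 clusters. Rhox5 was found in 36.4% of cluster 5 (23.8 to 50.4) and 30.8% of naive pluripotent-like cells. For Tex19.1 the shares were 21.8% (11.81 to 35.01) and 17.1%. Cluster 5 was also the highest LB cluster for Rpl10l and for Rhox9, the latter at 8.45 CPM (3.10 to 18.4), though within the intervals of the naive pluripotent-like cells. It had a median of 7.07% mitochondrial UMIs, where the other LB clusters had 2.41% to 2.87%, and the part of this in the levels was not tested. Sycp3 was spread over all LB clusters, from 10.7 CPM in the mesoderm-like cells (8.70 to 13.0) to 38.9 CPM in cluster 3. In the mesoderm-like cells Sycp3 was found in 6.58% of thinned cells (4.26 to 9.63) and Rhox5 in 4.11% (2.32 to 6.69). Sycp3 was therefore the gene of the 10 that did not follow the naive pluripotent-like cells.

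When clusters were made finer, 82 LB cells were primordial germ cell-like by 4 raised markers (Prdm1, Nanos3, Dnd1 and Tfap2c). The other markers of that list were not raised there: Kit had 12.0 CPM against 11.1 in the other LB cells, Ddx4 had 1 UMI, and Piwil2 and Itgb3 had 0. Dazl, Mael, Sycp1, Rpl10l and Rpl39l all had 0 UMIs in these 82 cells, with a floor of 1.72 CPM at 3 UMIs over the cluster. Rhox5 had 6 UMIs, Rhox9 7, Tex19.1 5 and Rhox6 4, each at a CPM below its level over all of LB, and Sycp3 had 26.3 CPM (19.3 to 35.1). These cells were thus no source of the LB counts of Dazl, Mael, Sycp1, Rpl10l or Rpl39l. Depth in this cluster was a median of 21169.5 UMIs.

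In the 3 large LBPXRS clusters Dazl had 23.0 CPM in cluster 1 (21.0 to 25.2), 28.9 in cluster 2 (26.2 to 31.7) and 43.1 in cluster 3 (39.9 to 46.5), the cluster led by Chac1, Gpt2 and Trib3, genes that include targets of the amino acid stress response. Rpl39l went another way, with 133 CPM in cluster 1 (128 to 138), 55.8 in cluster 2 (52.1 to 59.8) and 74.9 in cluster 3 (70.7 to 79.4). Cluster 2, led by Gata2 and Dusp4, had the lowest level of the 3 large clusters for 7 of the 10 genes: Sycp1, Tex19.1, Rhox5, Rhox6, Rhox9, Rpl10l and Rpl39l. It had the highest of these 3 for Sycp3, at 11.7 CPM against 5.99 and 6.47. In the small clusters 4 (75 cells) and 5 (51 cells), at median depths of 3291 and 7606 UMIs and median mitochondrial shares of 0.0419% and 6.99%, where the large clusters had 2.05% to 3.10%, Dazl had 7 UMIs and 8 UMIs (8.04 to 41.2 and 8.42 to 38.4 CPM), and Sycp3 had 25.7 CPM (11.8 to 48.8, from 9 UMIs) in cluster 4. The share of free RNA in these counts was not tested. Over the 3 large clusters the highest level over the lowest ranged from 1.36-fold for Mael to 2.70-fold for Rhox9, with 1.87-fold for Dazl, 2.38-fold for Rpl39l and 1.96-fold for Sycp3. A single cell held 83 of the 327 Rhox9 UMIs of cluster 1, its highest cluster, and the Rhox9 fold was not computed without that cell.

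LBPXRS was then set against the naive pluripotent-like LB cells alone, which takes the mesoderm-like and other cells out of the LB side. Of the 10 genes, 2 were then at least 2-fold higher in LBPXRS, beside 10.2% of 12185 genes, and 1 was at least 2-fold lower, beside 6.28%. Dazl was 5.04-fold higher (4.21 to 6.09), and Rpl39l 2.52-fold (2.33 to 2.72). Sycp3 was 3.06-fold lower. The other 7 lay within 2-fold on the log2 scale. Rpl10l was at 1.43 times the naive pluripotent-like level (1.26 to 1.62), Rhox6 at 1.53 (1.28 to 1.84), Rhox9 at 1.51 (1.27 to 1.80), Mael at 1.24 (1.07 to 1.44) and Sycp1 at 1.36 (0.925 to 2.04). Against 300 naive pluripotent-like cells from finer clusters, the log2 ratio went from 0.56 to 0.12 for Rhox6 and 0.54 to 0.14 for Rhox9. It went from 0.49 to 0.61 for Rpl10l, 0.29 to 0.38 for Mael and 0.29 to 0.51 for Sycp1. Tex19.1, at 0.718 times, and Rhox5, at 0.744 times, turned from higher to lower. The count of genes at least 2-fold higher thus went from 5 to 2 with the choice of LB cells.

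**Figure D3:**
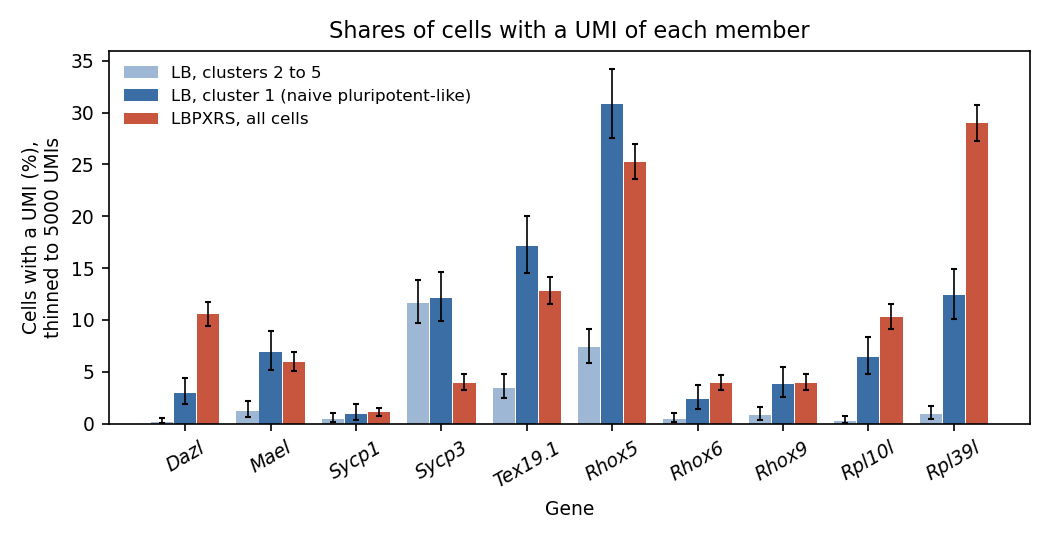
Share of cells with at least 1 UMI of each gene after thinning every cell to 5000 UMIs, in LB clusters 2 to 5 together (980 cells, pale blue), LB cluster 1 (753 cells, dark blue) and all LBPXRS cells (2621, red), with exact 95% binomial intervals. Dazl and Rpl39l are highest in LBPXRS, at 10.5% and 29.0%, whereas Rhox5 and Tex19.1 are highest in LB cluster 1.

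Rhox5 was uneven between cells. In LB, 1267 of 1783 cells had no Rhox5 UMI, 28.9% had at least 1, 14.9% at least 5 and 11.1% at least 10, and 1 cell reached 64. In LBPXRS, 36.0% had at least 1 and 10.4% at least 10. The 198 LB cells with at least 10 UMIs held 81.6% of its UMIs, and the 282 such LBPXRS cells held 65.6%. Within the naive pluripotent-like cells alone, 53.9% had no Rhox5 UMI while 21.4% had at least 10, so the unevenness was also present inside that class. Its Fano factor (variance over mean, 1 for pure counting noise) in thinned cells was 5.39 in LB, where 28 of 12601 genes were higher, and 3.34 in LBPXRS, where 43 of 12546 were higher.

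**Figure D4:**
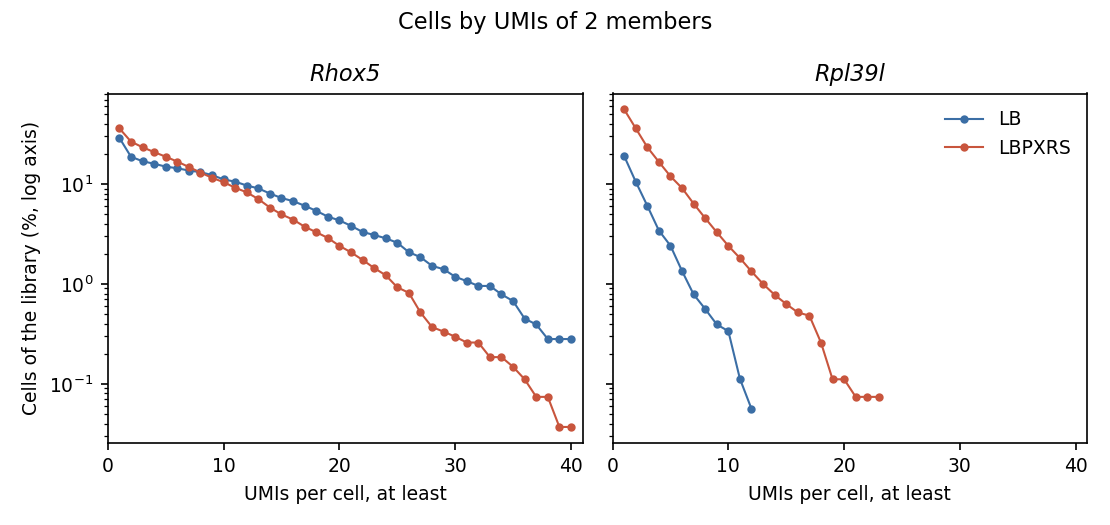
Share of cells of each library (vertical axis, percent, log axis) with at least the number of UMIs on the horizontal axis, up to 40, for Rhox5 and Rpl39l, LB in blue and LBPXRS in red, all kept cells without thinning. At 10 or more UMIs Rhox5 has 11.1% of LB and 10.4% of LBPXRS cells, and Rpl39l 0.337% and 2.40%.

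Rpl39l had at least 1 UMI in 19.07% of LB and 55.8% of LBPXRS cells, and at least 10 in 0.337% and 2.40%. Rhox6 was the least even of the 10 genes in LB, with a Fano factor of 7.76 that 9 of 12601 genes passed, and 10 cells held 48.9% of its 231 UMIs. A single cell held 37 of the 69 Rhox6 UMIs of the mesoderm-like cluster, and another cell, with 6042 UMIs in all, held 24. The cluster's level was 7.46 CPM with both cells and 0.868 CPM (8 UMIs) without them, so its Rhox6 level and the Fano factor over LB rest largely on them. The first cell was in a cluster of 62 trophoblast-like cells at the finer setting. With the 10 highest cells of each gene left out of each library, the log2 ratio was 1.42 for Rhox6, 1.27 for Rhox9, 3.08 for Dazl, 2.44 for Rpl39l and -1.57 for Sycp3. With each cell given equal weight, Rhox6 had 0.51 and Rhox9 0.93, both below the 2-fold line.

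Rhox6 and Rhox9 had the highest correlation over cells of all pairs of the 10 genes in each library. In LB, 92 cells had Rhox6 and 109 had Rhox9, with 41 in common, which is 44.6% of the first and 37.6% of the second, where 6.11% of all LB cells had Rhox9. In LBPXRS, 285 and 283 cells had them, with 109 in common, or 38.2% and 38.5%, where 10.5% of all LBPXRS cells had Rhox9. The correlation of their normalised levels over cells was 0.58 in 1783 LB cells, 0.51 in 2705 LBPXRS cells and 0.62 in the 761 naive pluripotent-like cells. As a description, with cells sharing a library and depth, this pair was the only one of 45 at or above 0.2 in LBPXRS and in the naive pluripotent-like cells. Over all LB cells 5 pairs reached 0.2, the others being Rhox5 with Rpl39l (0.26), Rpl10l with Rpl39l (0.23), Tex19.1 with Rhox5 (0.21) and Tex19.1 with Rpl10l (0.21).

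Other germline genes were read from 3 lists of 75 genes, of which 74 were in the tables and 43 passed the filter. Together 13 of 43 reached 2-fold higher in LBPXRS, where 8.53% of all genes did, and 3 of 43 reached 2-fold lower, where 11.6% of all genes did, with a median log2 ratio of 0.65 beside -0.14 over all genes. Of 20 meiotic chromosome genes 9 were higher and 0 lower by that measure (8.53% and 11.6% of all genes), with a median of 0.80. Rec114, needed for meiotic DNA breaks, had 11.4 CPM in LB and 80.4 in LBPXRS (log2 ratio 2.71). Stra8, which starts the meiotic programme under retinoic acid, had 0.857 and 10.4 CPM (2.62), and Meioc, which stabilises meiotic prophase, 2.51 and 17.5 (2.40). Hsf2bp, a partner of BRCA2 in meiotic recombination, had 44.3 and 121 CPM (1.42). The recombinase Dmc1 (3.58 and 11.9 CPM), the axis protein Hormad1 (1.37), the cohesin Rec8 (1.32) and the histone reader Zcwpw1 (1.05) were also at least 2-fold higher.

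Of 14 piRNA pathway genes 3 were higher and 2 lower, with a median of 0.62. With 8.53% and 11.6% of all genes beside them, the lower count is near the background. Fkbp6, a co-chaperone in piRNA loading, had 2.26 CPM in LB and 24.8 in LBPXRS (2.98), Gtsf1, a piRNA cofactor, a log2 ratio of 1.65, and the Tudor protein Rnf17 1.47. The 2 lower genes were the Tudor proteins Tdrkh (-1.09) and Tdrd5 (-2.61, with 8.31 CPM in LB and 0.521 in LBPXRS, named after its value was seen). Tdrd12 had -0.33. Of 9 other germline genes 1 was higher and 1 lower, near those same shares of all genes. The higher was the tubulin Tuba3a (15.6 and 43.6 CPM, 1.42) and the lower Boll, a relative of Dazl (-1.04, also named after its value was seen), while the testis cytochrome Cyct had 0.65 and Tex14, of germ cell bridges, 0.56. Against naive pluripotent-like LB cells the median over 44 genes of the 3 lists was 0.17, beside 0.07 over all genes. Of the 44, 6 passed 2-fold upward in LBPXRS and 3 downward, beside 10.2% and 6.28% of all genes, so these counts are near the background. Inside LB, 23 of 41 such genes were at least 2-fold higher in the naive pluripotent-like cells, beside 6.80% of all genes, and 2 were lower, beside 15.8%.

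**Figure D5:**
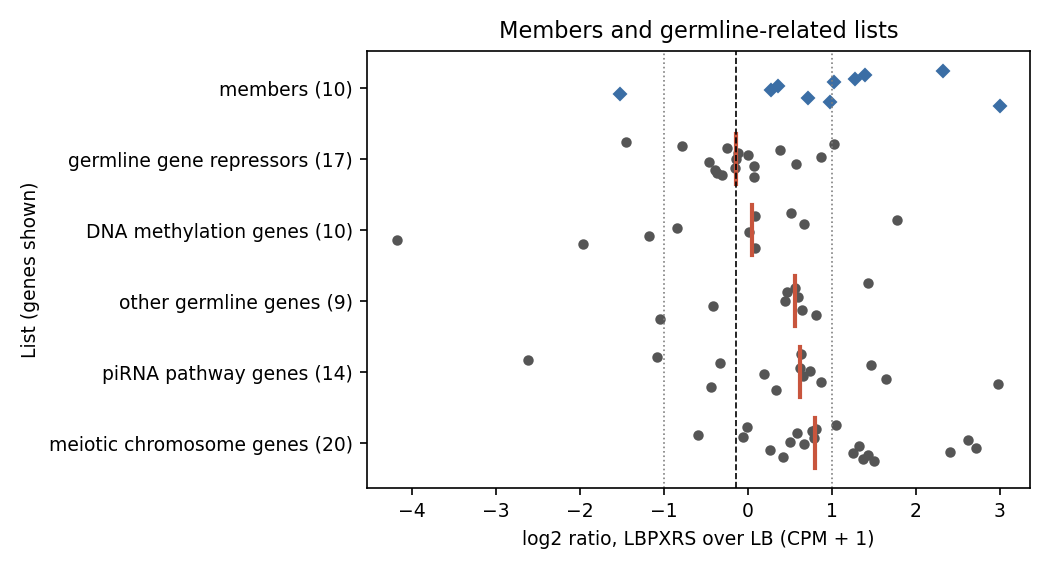
Log2 ratio of LBPXRS over LB (horizontal axis, after adding 1 CPM) for the 10 genes (diamonds) and for genes of 5 lists that passed the filter on low levels (points), each list with its number of genes and its median as a red bar. The dashed line is the median of all genes (-0.14) and the dotted lines mark 2-fold; the 20 meiotic chromosome genes have none beyond the lower line.

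Genes that write or erase DNA methylation were read beside these, from a list of 10 that passed the filter, of which 1 was at least 2-fold higher and 3 lower, beside 8.53% and 11.6% of all genes, so the single higher gene is at the background. The de novo methyltransferase Dnmt3b had 116 CPM in LB and 5.48 in LBPXRS (-4.17), Dnmt3a 26.6 and 6.10 (-1.96), and their cofactor Dnmt3l 30.3 and 12.9 (-1.18). Of the 8 formative or primed pluripotent markers, which include Dnmt3b, 7 were at least 2-fold lower, and they summed to 546 and 123 CPM. Against naive pluripotent-like LB cells alone the log2 ratios were -3.39 for Dnmt3b, -1.51 for Dnmt3a and -2.04 for Dnmt3l. Tet2, which oxidises methylcytosine, had 6.66 and 25.2 CPM (1.77), and Tet1 a log2 ratio of 0.67. The maintenance methyltransferase Dnmt1 (0.09) and its partner Uhrf1 (0.51) lay within 2-fold, as did the glycosylase Tdg (-0.85). Of 17 genes of the repressor complexes, 1 was higher, Wdr5 (1.03), and 1 lower, Yaf2 (-1.45), below the shares of all genes (8.53% and 11.6%). Mga had 40.7 and 75.2 CPM (0.87) and Tfdp1, the DP partner of E2F6, -0.79 on chromosome 8. Hdac2 had 0.58, Rybp 0.38, L3mbtl2 -0.47 and Ehmt1 -0.39. The median of that list, -0.15, was that of all genes to within 0.02.

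By the correlation of log2 levels over the 10 clusters of both libraries, centred within each library, among 9078 genes, the gene most like Dazl was Klf3 (r = 0.98), followed by Lrriq4 and Vwf (0.96 each). For Rpl39l they were Rpp25 (0.98), Prrc1 (0.97) and the naive factor Esrrb (0.97), and for Rpl10l Tmem40 (1.00), Gm46332 and Triml1 (0.99 each). For Tex19.1 they were Zfp990 (0.99), Tdrd12 and Zfp988 (0.98 each), and for Rhox5 Gm21411, Triml2 and Zfp988 (0.99 each). Rhox9 was nearest to Nr5a2 (0.95), 1700042O10Rik and Vangl1 (0.94 each), and Rhox6 to Bcl7b (0.96), Etfrf1 (0.94) and 4921524J17Rik (0.93). Without both high cells described above, the Rhox6 level of LB cluster 2 went from 7.46 to 0.868 CPM. The genes nearest to Rhox6 were not computed again without these cells. Mael was nearest to Rangrf (0.94), Gm40457 and Terb2 (0.92 each), and Sycp3 to Kctd6 (0.93) and Cry1 (0.90). Sycp1 was too low for this measure. Clusters of 1 library share cells' handling and depth, and these values are descriptions over 10 points.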

How the data were processed

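Mouse R1 embryonic stem cells were profiled by 10x Genomics 3′ version 2 single-cell RNA sequencing, per the labels' protocols. The authors deposited whole-number UMI counts per gene and barcode, made with Cell Ranger 4.0.0 against mm10, per the submitters' processing notes. The annotation and settings are not given in the sources used here. Positions are from GENCODE vM21, matched by gene identifier.

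Barcodes with fewer than 1000 genes or over 10% mitochondrial UMIs were left out: 225 of 2008 in LB (11.2%) and 406 of 3111 in LBPXRS (13.1%). Doublets were not called; leaving out the 5% of cells with the most UMIs was an alternative. UMIs were summed per library and scaled to CPM. With 1 library per condition no test was possible, and differences are described by size. Clusters were made per library with scanpy 1.11.5 and leidenalg 0.10.2 (2000 variable genes, 30 principal components, 15 neighbours, resolution 0.5, or 1 for finer clusters) and named by counting, for each class, its raised markers (at least 5 CPM and a log2 ratio of at least 1 over the other cells of the library). A name needed at least 3 of these and more than any other class, a median log2 ratio of at least 1 over the class's detected markers, and no other class with more markers among the 10 genes of highest fold. It was also refused at a median depth below the library's divided by 3 with no own marker among those 10. All 5 unnamed clusters at resolution 0.5 with at least 3 raised markers had a median below 1. Alternatives changed the scaling (TMM from edgeR 4.0.16, or median-of-ratios), pseudocount, gene filter, barcode filter, weighting of cells and choice of LB cells. The step from counts to ratios was tested on simulated data.

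The 10 genes and the lists were chosen with earlier results of these data known. Named were all 10, list genes with at least 10 CPM in either library (the 8 largest log2 ratios per list), other Rhox genes with at least 10 UMIs, and the 3 genes most like each, of which 1 is not reported here. Genes that lead clusters, cell type markers, and list genes said to be named after their values were seen were named besides.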

Additional observations from a re-analysis of the deposited data

How the results depend on the processing

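Under 12 alternatives the number of the 10 genes at least 2-fold lower in LBPXRS stayed at 1. The number higher was 5 and ranged from 2 to 7. It was 7 with a pseudocount of 0.1 CPM, 6 with TMM scaling, 6 with median-of-ratios size factors and 4 with all deposited barcodes. The number was 3 without the 5% of cells with the most UMIs and 3 with the mean over cells of each cell's CPM. With naive pluripotent-like LB cells only it was 2 at either resolution. Of the other germline genes, 13 were higher. That count was 8 at a mean CPM of at least 10, and 6 and 7 with naive pluripotent-like LB cells at resolution 0.5 and 1. The 3 lower became 1 with TMM scaling, 1 with median-of-ratios size factors and 0 at a mean CPM of at least 10. Their median of 0.65 was 0.36 with no filter, 1.42 at a mean CPM of at least 10, and 0.17 and 0.18 with naive pluripotent-like LB cells. The causes were not tested. TMM moved the median of all genes from -0.14 to 0.00. Dazl kept log2 ratios between 2.10 and 3.33, Rpl39l between 1.31 and 2.49 and Sycp3 between -1.63 and -1.30, whereas Tex19.1 and Rhox5 changed sign with naive pluripotent-like LB cells (to -0.46 and -0.42, or -0.86 and -0.31 at resolution 1). Leaving out the clusters of low depth, chosen after seeing the data, moved Rhox5 to 0.47. No paired analysis was possible because each condition has 1 library, and for the same reason no library could be left out. Sycp1, with 45 and 118 UMIs, is limited by depth.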
